A study of Mus musculus with 8 samples.

Results

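The genes described here carry the start of blood coagulation, the receptors that sense its proteases and the cell-surface plasminogen system. Of 9 listed genes, 8 were measured among the 19938 named genes of the array: F3, F7, F10, F2r, Thbd, Plau, Plaur and Serpinb2. F2rl1, the gene of a second protease-activated receptor, was not analysed here. The genes were listed by function, and each measured gene had 1 probe set. They were read in mouse macrophages derived from bone marrow, a culture of phagocytic cells. One group stayed untreated, one received the type 1 cytokine IFN-gamma with bacterial LPS, one received the type 2 cytokines IL-4 and IL-13, and one received LPS together with both of those interleukins, each over 6 h. Each of the 4 groups had 2 arrays, and the labels give neither the mouse strain nor the doses nor whether arrays of the same group stem from different cultures, so a p-value here speaks only of the scatter among these arrays, which may be technical. No group received LPS alone, so both groups with LPS differ in IFN-gamma as well as in IL-4 and IL-13.

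Tissue factor, the protein of F3, starts coagulation at the cell surface when it binds factor VII, the protein of F7. That pair activates factor X, the protein of F10, and factor Xa then turns prothrombin into thrombin. Thrombin cuts fibrinogen and also cuts the receptor PAR1, the protein of F2r, while thrombomodulin, the protein of Thbd, binds thrombin and directs it towards protein C, an anticoagulant. Urokinase, the protein of Plau, sits on its receptor, the protein of Plaur, where it turns plasminogen into the fibrin-cutting plasmin, and Serpinb2 encodes a serpin that inhibits urokinase. Activated monocytes and macrophages are a known source of tissue factor and of SERPINB2.

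The cells looked like macrophages on the arrays. All 9 measured macrophage markers lay above the median untreated log2 signal of all genes (6.3), and their mean stood at 11.551 or above on every array. Of the markers of other cells, 3 of 9 endothelial, 3 of 6 platelet, 3 of 8 fibroblast, 3 of 9 neutrophil, 1 of 6 lymphocyte and 0 of 4 hepatocyte genes lay above that median. The arrays carry no detection calls, so a low signal is not shown to be expression. Retnla, a gene induced by IL-4, averaged 10.2 in the IL-4/IL-13 group against 4.69 in untreated cells, and Nos2, the inducible nitric oxide synthase gene, averaged 12.7 in the IFN-gamma/LPS group against 5.67. In the LPS/IL-4/IL-13 group Nos2 averaged 12.4 and Arg1, another gene induced by IL-4, 10.6 against 5.07 in untreated cells, but Retnla averaged 4.50. The 2 arrays of each group had an r between 0.9939 and 0.9974 over all genes, and genes do not count as replicates. A change in these bulk samples does not separate fewer cells of a type from less RNA per cell.

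The promoters of the 4 genes below are shown because they held the same short motif. Their genes rose in the LPS/IL-4/IL-13 group, and so did F7 and F10, whose promoters did not hold it. RefSeq promoter windows (GRCm38.p6, 250 bases before to 50 after a start site) were found for 6 of the 8 measured genes. Windows of F3, Plaur, Serpinb2 and F2r, 4 of those 6 genes, held the AP-1 motif TGANTCA on either strand. Counted by window this was 5 of 7, beside 7.81% of 32851 windows of all genes. Among the motifs searched, AP-1 was the one held by the most of these genes. The windows shown for Plaur and Serpinb2 start within the span annotated for the gene. In each line the 250 bases before 1 start site run 5′ to 3′ along the gene, and capitals mark AP-1 (TGANTCA), NF-kB (GGNNTTTCC), TATA box (TATAAA) and EGR and SP1 (GGGCGG) motifs.
F3 (chr3:121723287-121723536, plus strand): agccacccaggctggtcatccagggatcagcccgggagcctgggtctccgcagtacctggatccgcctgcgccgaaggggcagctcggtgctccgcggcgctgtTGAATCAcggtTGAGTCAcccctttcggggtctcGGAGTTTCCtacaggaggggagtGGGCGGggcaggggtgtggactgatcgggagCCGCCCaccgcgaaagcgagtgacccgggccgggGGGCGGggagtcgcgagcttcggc
Plaur (chr7:24462233-24462482, plus strand): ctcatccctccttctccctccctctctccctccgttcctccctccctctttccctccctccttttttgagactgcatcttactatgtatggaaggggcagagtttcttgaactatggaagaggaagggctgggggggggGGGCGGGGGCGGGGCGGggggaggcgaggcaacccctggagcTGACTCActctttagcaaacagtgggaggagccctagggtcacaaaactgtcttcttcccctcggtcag
Serpinb2 (chr1:107511173-107511422, plus strand): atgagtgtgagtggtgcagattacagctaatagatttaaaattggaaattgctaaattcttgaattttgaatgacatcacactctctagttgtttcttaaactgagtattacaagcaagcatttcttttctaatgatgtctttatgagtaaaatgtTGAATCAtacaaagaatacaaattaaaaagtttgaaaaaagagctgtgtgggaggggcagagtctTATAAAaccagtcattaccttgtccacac
F2r (chr13:95618467-95618716, minus strand): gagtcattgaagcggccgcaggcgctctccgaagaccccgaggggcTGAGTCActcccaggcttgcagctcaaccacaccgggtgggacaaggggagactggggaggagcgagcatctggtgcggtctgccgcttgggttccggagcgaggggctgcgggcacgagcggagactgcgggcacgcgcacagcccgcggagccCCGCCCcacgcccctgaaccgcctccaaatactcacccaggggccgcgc

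The F3 promoter held 2 AP-1 motifs that begin at -146 and -135 relative to the start site, followed by an NF-kB motif at -112, which 5.82% of all windows hold, and by 3 EGR and SP1 motifs. Plaur held 1 AP-1 motif at -69 and 3 overlapping EGR and SP1 motifs that begin at -111, -105 and -100. Serpinb2 held an AP-1 motif at -94 and a TATA box at -29, a motif found in 13.6% of all windows. F2r held an AP-1 motif at -204 and 1 EGR and SP1 motif at -49, on the reverse strand. The windows of F7 and F10 held none of the motifs named here, and none of the members' windows held the STAT6 motif (TTC and GAA with 4 bases between them, 6.95% of windows) or the CRE motif (TGACGT, 7.51%). EGR and SP1 motifs occur in 35.7% of all windows. A match is a stretch of letters and no measure of binding.

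F3, the gene of tissue factor, had a low signal without LPS and a high signal in both treatments that held it. Its log2 signal was 4.78 and 4.77 on the untreated arrays, 9.68 and 9.76 under IFN-gamma/LPS, 4.83 and 5.12 under IL-4/IL-13, and 7.80 and 8.05 under LPS/IL-4/IL-13. The 4 arrays with LPS all stood far above the 4 arrays without it, and the IFN-gamma/LPS pair stood above the LPS/IL-4/IL-13 pair. The untreated F3 signal lay below the mean of the hepatocyte markers on the same arrays (5.15 and 5.20), so expression of F3 in untreated cells is not shown and its folds compare signals. The F3 signal rose 30.8-fold under IFN-gamma/LPS (log2 change 4.95 ± 0.13, SE, n = 2 arrays per group, adjusted p = 1.78e-11). Under LPS/IL-4/IL-13 it rose 8.88-fold (log2 change 3.15 ± 0.13, adjusted p = 9.88e-10), which was 3.47-fold lower than under IFN-gamma/LPS (log2 difference -1.80 ± 0.13, adjusted p = 7.48e-07). IL-4/IL-13 alone left F3 0.20 above untreated on the log2 scale, with a 95% interval from -0.07 to 0.47 (adjusted p = 0.286).

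**Figure D1:**
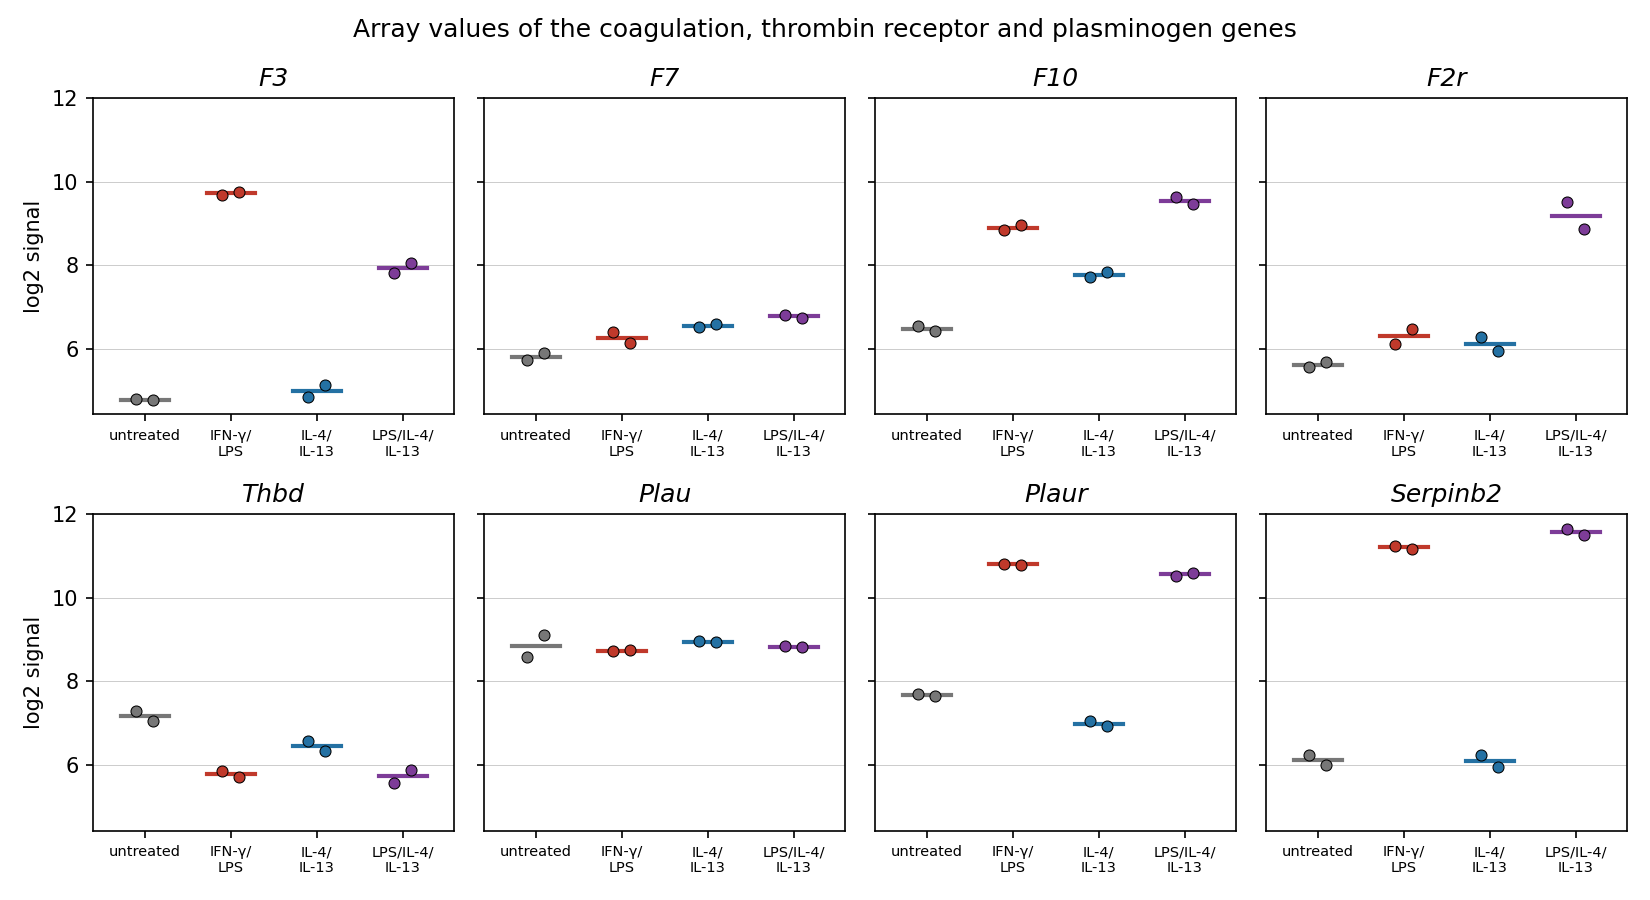
Log2 signal of the 8 measured genes (vertical axis) in the 4 groups (horizontal axis). Points are single arrays and bars the mean of the 2 arrays of a group. F3, Plaur and Serpinb2 are high in both groups with LPS, F2r is high only in the LPS/IL-4/IL-13 group, where its arrays read 9.51 and 8.86, and Plau lies between 8.59 and 9.12 on all 8 arrays.

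F10, the gene of factor X, rose under every treatment, and F7, the gene of factor VII, rose by less. F10 read 6.53 and 6.42 untreated, 8.83 and 8.96 under IFN-gamma/LPS, 7.71 and 7.83 under IL-4/IL-13, and 9.63 and 9.46 under LPS/IL-4/IL-13. None of the 4 groups overlapped, and all 6 comparisons between them passed, which orders its levels from the combination at the top through IFN-gamma/LPS and then IL-4/IL-13 to untreated cells. The rise was 8.40-fold for the combination (log2 change 3.07 ± 0.10, adjusted p = 2.3e-10), 5.35-fold for IFN-gamma/LPS (2.42 ± 0.10, adjusted p = 1.44e-09) and 2.45-fold for IL-4/IL-13 (1.30 ± 0.10, adjusted p = 3.13e-06). The combination stood 1.57-fold above IFN-gamma/LPS (log2 difference 0.65 ± 0.10, adjusted p = 0.000639).

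F7 read 5.72 and 5.89 untreated, 6.39 and 6.13 under IFN-gamma/LPS, 6.51 and 6.58 under IL-4/IL-13, and 6.81 and 6.74 under LPS/IL-4/IL-13. All treated arrays lay above both untreated arrays, within about 1 log2 unit. The change was 0.97 ± 0.12 for the combination (adjusted p = 2.35e-05), 0.74 ± 0.12 for IL-4/IL-13 (adjusted p = 0.000825) and 0.46 ± 0.12 for IFN-gamma/LPS (adjusted p = 0.00667), while the median of all genes stood 0.11 above untreated in that last comparison. The IFN-gamma/LPS call of F7 was lost without untreated array 1 (adjusted p = 0.0753) and without IFN-gamma/LPS array 1 (adjusted p = 0.0731). F7 was higher in the combination than under IFN-gamma/LPS (log2 difference 0.52 ± 0.12, adjusted p = 0.00816), a call lost without IFN-gamma/LPS array 2 (adjusted p = 0.0807). In the order of its levels, IL-4/IL-13 differed by the test neither from the combination above it (difference of the combination 0.23, 95% interval from -0.03 to 0.49, adjusted p = 0.171) nor from IFN-gamma/LPS below it (difference of IFN-gamma/LPS -0.29, 95% interval from -0.54 to -0.03, adjusted p = 0.0772). The first of these was called after quantile normalization (0.325, adjusted p = 0.0415), and the second without IFN-gamma/LPS array 1 (adjusted p = 0.0303) and with dim genes left out (adjusted p = 0.0432).

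F7 and F10 are neighbours on chromosome 8 (GRCm38.p6, F7 at 13025506 to 13035809 and F10 at 13037308 to 13056676), with 1498 bases between them. Proz, the gene of the vitamin K-dependent protein Z, follows F10 after 3907 bases and read 0.29 above untreated under IFN-gamma/LPS, which passed, 0.27 under IL-4/IL-13 and 0.27 in the combination, which did not. The large change in this cluster of 3 was that of F10.

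F2r, the gene of the thrombin receptor PAR1, was high in the combination and low elsewhere. Its log2 signal was 5.55 and 5.68 untreated, 6.11 and 6.47 under IFN-gamma/LPS, 6.28 and 5.95 under IL-4/IL-13, and 9.51 and 8.86 under LPS/IL-4/IL-13. The lower LPS/IL-4/IL-13 array stood more than 2 log2 units above the highest array of any other group, although the 2 arrays of that group lay 0.65 apart, the widest such gap for F2r. F2r rose 11.9-fold in the combination against untreated (log2 change 3.57 ± 0.20, adjusted p = 1.7e-08), 7.44-fold against IFN-gamma/LPS (2.90 ± 0.20, adjusted p = 5.82e-07) and 8.40-fold against IL-4/IL-13 (3.07 ± 0.20, adjusted p = 8.24e-08). IFN-gamma/LPS alone raised it by 0.68 ± 0.20 (adjusted p = 0.0124), a call lost without untreated array 1 (adjusted p = 0.0875), without IFN-gamma/LPS array 2 (adjusted p = 0.0901) and when p-values were adjusted over all probe sets (adjusted p = 0.0511). Under IL-4/IL-13 it read 0.50 above untreated (95% interval from 0.07 to 0.93, adjusted p = 0.0968), which passed without LPS/IL-4/IL-13 array 1 (adjusted p = 0.0273) or array 2 (adjusted p = 0.0265), with only the 4 arrays compared (adjusted p = 0.00725) and with dim genes left out (adjusted p = 0.0435). The IFN-gamma/LPS and IL-4/IL-13 arrays of F2r overlapped (difference 0.18, 95% interval from -0.25 to 0.60, adjusted p = 0.551).

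Of the other protease-activated receptor genes, F2rl2 rose in the combination and F2rl3 did not pass in any comparison with untreated cells. F2rl2, the gene of PAR3, read 5.84 and 6.24 untreated, 6.28 and 6.09 under IFN-gamma/LPS, 6.63 and 6.51 under IL-4/IL-13, and 7.0 and 7.20 under LPS/IL-4/IL-13. Its change was 1.06 in the combination, 0.53 under IL-4/IL-13 and 0.15 under IFN-gamma/LPS, where it did not pass. The IL-4/IL-13 call of F2rl2 was lost without untreated array 1 (adjusted p = 0.244) and without IL-4/IL-13 array 1 (adjusted p = 0.12) or array 2 (adjusted p = 0.0726). F2rl3, the gene of PAR4, changed by 0.09 under IFN-gamma/LPS, 0.42 under IL-4/IL-13 and 0.20 in the combination, and the IL-4/IL-13 value passed without IFN-gamma/LPS array 1 (adjusted p = 0.0339) or array 2 (adjusted p = 0.0346) and without LPS/IL-4/IL-13 array 1 (adjusted p = 0.0464) or array 2 (adjusted p = 0.0455). PAR3 and PAR4 are the thrombin receptors of mouse platelets, and 2 of 6 platelet markers rose and 1 fell in the combination, with the mean of the 6 at 7.04 and 7.07 there, 6.87 and 6.91 in untreated, 6.79 and 6.72 in IFN-gamma/LPS and 6.95 and 6.92 in IL-4/IL-13 arrays. Of 9 neutrophil markers, 3 rose and 1 fell in the combination, with S100a8 at 5.44 and 5.42 in untreated and 6.99 and 6.18 in LPS/IL-4/IL-13 arrays. The mean of the 9 stood between 5.557 and 5.761 on the other arrays and at 5.853 and 5.784 in the combination. Of 8 fibroblast markers, 2 rose under each treatment with LPS, with Dcn at 5.77 and 5.83 in untreated and 7.54 and 7.55 in LPS/IL-4/IL-13 arrays. The mean of the 8 stood at 6.09 and 6.13 in untreated, 6.37 and 6.45 in IFN-gamma/LPS, 6.15 and 6.27 in IL-4/IL-13, and 6.48 and 6.44 in LPS/IL-4/IL-13 arrays. The part of all these markers in the values of F2r, F2rl2 and F2rl3 was not tested. Iqgap2, which encodes a scaffold protein, is the next gene after F2r on chromosome 13 and holds F2rl2 within its span. Iqgap2 fell under every treatment, with a log2 change of -1.16 ± 0.10 under IFN-gamma/LPS, -1.17 ± 0.10 under IL-4/IL-13 and -0.57 ± 0.10 in the combination.

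Thbd, the gene of thrombomodulin, was the member that fell under all treatments. It read 7.30 and 7.04 untreated, 5.86 and 5.71 under IFN-gamma/LPS, 6.58 and 6.33 under IL-4/IL-13, and 5.56 and 5.88 under LPS/IL-4/IL-13. The untreated arrays were highest, the IL-4/IL-13 arrays came next, and the 2 groups with LPS overlapped (difference of the combination -0.07, 95% interval from -0.38 to 0.25, adjusted p = 0.855). Thbd fell 2.61-fold under IFN-gamma/LPS (log2 change -1.39 ± 0.14, adjusted p = 4.37e-06), 2.73-fold under LPS/IL-4/IL-13 (-1.45 ± 0.14, adjusted p = 3.62e-06) and 1.64-fold under IL-4/IL-13 (-0.72 ± 0.14, adjusted p = 0.00381). The IL-4/IL-13 call was lost without untreated array 1 (adjusted p = 0.0665) and without IL-4/IL-13 array 2 (adjusted p = 0.059). Cd93, which encodes a related lectin-like membrane protein and is the next protein-coding gene after Thbd on chromosome 2, fell too, with log2 changes of -1.15 under IFN-gamma/LPS, -1.42 under IL-4/IL-13 and -1.62 under LPS/IL-4/IL-13.

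Plaur, the urokinase receptor gene, rose with LPS and fell with IL-4/IL-13 alone. It read 7.69 and 7.64 untreated, 10.82 and 10.79 under IFN-gamma/LPS, 7.04 and 6.94 under IL-4/IL-13, and 10.53 and 10.60 under LPS/IL-4/IL-13. No 2 groups overlapped, and replicate arrays lay at most 0.10 apart. The rise was 8.82-fold under IFN-gamma/LPS (log2 change 3.14 ± 0.08, adjusted p = 2.85e-11) and 7.46-fold under LPS/IL-4/IL-13 (2.90 ± 0.08, adjusted p = 7.19e-11), and the fall under IL-4/IL-13 was 1.60-fold (-0.68 ± 0.08, adjusted p = 0.000126). The combination stood 0.24 below IFN-gamma/LPS without passing (95% interval from -0.43 to -0.06, adjusted p = 0.072), and that difference passed after quantile normalization (-0.25, adjusted p = 0.049). Against IL-4/IL-13 alone, the combination was 11.9-fold higher (3.58 ± 0.08, adjusted p = 1.54e-11).

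Serpinb2, the gene of the urokinase-inhibiting serpin, had the widest range of group means of the 8 genes, at the 99.8th percentile of all named genes. It read 6.23 and 5.99 untreated, 11.25 and 11.17 under IFN-gamma/LPS, 6.24 and 5.95 under IL-4/IL-13, and 11.66 and 11.50 under LPS/IL-4/IL-13. The untreated and IL-4/IL-13 arrays overlapped, with a difference of -0.02 and a 95% interval from -0.28 to 0.25 (adjusted p = 0.94). In the combination Serpinb2 rose 44.3-fold (log2 change 5.47 ± 0.12, adjusted p = 7.38e-12), beside the rise under IFN-gamma/LPS of 5.10 ± 0.12. The 2 groups with LPS differed by 0.37 ± 0.12 (adjusted p = 0.0488), with both arrays of the combination higher. This call was lost without untreated array 1 (adjusted p = 0.0575) or array 2 (adjusted p = 0.0571), without IFN-gamma/LPS array 1 (adjusted p = 0.113) or array 2 (adjusted p = 0.189), and without LPS/IL-4/IL-13 array 1 (adjusted p = 0.214).

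Among 8 other B-type serpin genes of the Serpinb2 chromosome, Serpinb8 alone was called against untreated cells. It rose by 1.70 under IFN-gamma/LPS, fell by 1.77 under IL-4/IL-13 and rose by 1.21 in the combination, on the log2 scale. Serpinb10, which starts 3393 bases after Serpinb2, read 0.21 below, 0.27 below and 0.35 above untreated cells in the same order and did not pass.

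Plau, the urokinase gene itself, was not called in any of the 6 comparisons. It read 8.59 and 9.12 untreated, 8.72 and 8.75 under IFN-gamma/LPS, 8.96 and 8.95 under IL-4/IL-13, and 8.84 and 8.82 under LPS/IL-4/IL-13. The untreated pair spanned all other arrays. The 95% intervals of the difference from untreated were -0.42 to 0.18 for IFN-gamma/LPS (adjusted p = 0.48), -0.20 to 0.40 for IL-4/IL-13 (adjusted p = 0.639) and -0.33 to 0.28 for the combination (adjusted p = 0.896). Without untreated array 1, which read 8.59, Plau was called lower under IFN-gamma/LPS (-0.39, adjusted p = 0.0189).

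**Figure D2:**
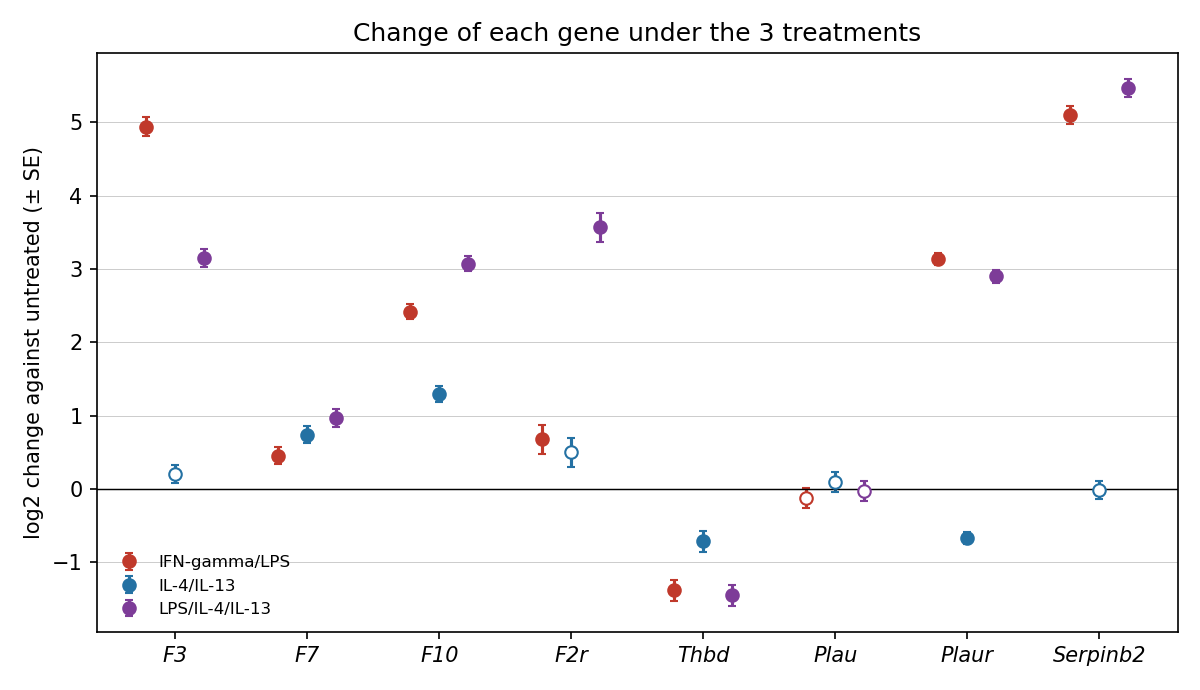
Log2 change against untreated cells (vertical axis, ± SE) of the 8 genes under the 3 treatments. Filled points passed at an adjusted p under 0.05 and open points did not. Serpinb2 and F3 show the largest changes under IFN-gamma/LPS, 5.10 and 4.95, and Thbd lies below 0 under all 3 treatments.

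Counted together, 6 of the 8 genes were higher and 1 lower under IFN-gamma/LPS than in untreated cells. In that comparison 51.9% of all named genes were called, 23.6% higher and 28.4% lower. The calls of F2r and F7 among the 6 were both lost without untreated array 1. Changes of at least 2-fold were called for 5 of the 8 (F3, F10, Plaur, Serpinb2 and Thbd) and for 17% of all genes, and the median change was 1.55 for the 8 and 0.11 for all genes. Under LPS/IL-4/IL-13 6 were higher and 1 lower, with 45.6% of all genes called, 20.3% higher and 25.4% lower. There 6 of the 8 and 13.9% of all genes reached 2-fold, with medians of 2.99 and 0.09. IL-4/IL-13 gave 2 higher, F7 and F10, and 2 lower, Thbd and Plaur, where 20.2% of all genes were called, 7.83% higher and 12.3% lower. Only F10 of the 8 reached 2-fold there, as did 2.44% of all genes, and the medians were 0.15 and 0.07. These 3 comparisons share the untreated arrays.

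Between treatments, the combination had 4 of the 8 genes higher than IFN-gamma/LPS (F2r, F7, F10 and Serpinb2) and 1 lower (F3), where 19.7% of all genes were called, 12.1% higher and 7.62% lower. F2r and F3 reached 2-fold, as did 3.31% of all genes. Against IL-4/IL-13 alone it had 5 higher (F2r, F3, F10, Plaur and Serpinb2) and 1 lower (Thbd), with 36.7% of all genes called, 14.1% higher and 22.6% lower. The 5 higher genes reached 2-fold, as did 11.2% of all genes. Set against that same group, IFN-gamma/LPS had 4 higher (F3, F10, Plaur and Serpinb2) and 1 lower (Thbd), with 41.6% called, 15.5% higher and 26.1% lower. The 4 higher genes reached 2-fold, as did 15.2% of all genes. Without IFN-gamma/LPS array 2, 2 genes in place of 4 were higher in the combination than under IFN-gamma/LPS.

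The combined treatment was set beside the sum of the log2 changes under IFN-gamma/LPS and under IL-4/IL-13, a sum that also holds IFN-gamma because no group had LPS alone. F2r exceeded the sum by 2.40 ± 0.28 (adjusted p = 6.9e-05), 3.57 against a sum of 1.18. F3 fell short of it, at 3.15 against 5.15 (departure -1.995 ± 0.18, adjusted p = 8.26e-06), and so did F10, at 3.07 against 3.72 (-0.65 ± 0.15, adjusted p = 0.00801). Departures above the sum were also called for Thbd (0.65 ± 0.20, adjusted p = 0.0418) and Plaur (0.44 ± 0.12, adjusted p = 0.0232). For Thbd the departure was a smaller fall, -1.45 against a sum of -2.10. Thbd read 5.56 and 5.88 in the combination, where the hepatocyte markers averaged 5.34 and 5.44. How far a low signal bounded its fall was not tested. No departure was called for F7 (-0.23, 95% interval from -0.59 to 0.14), Plau (-0.01, -0.43 to 0.42) or Serpinb2 (0.39, 0.02 to 0.75). In all, 3 of the 8 genes lay above the sum and 2 below it, beside 20.1% of all named genes, 13.2% above and 6.87% below. F2r and F3 departed by at least 2-fold, as did 5.35% of all genes. The Thbd call was lost without untreated array 1 (adjusted p = 0.192), IFN-gamma/LPS array 2 (0.105), IL-4/IL-13 array 2 (0.17) or LPS/IL-4/IL-13 array 2 (0.107). That of Plaur was lost without untreated array 1 (adjusted p = 0.107) or 2 (0.0639), IFN-gamma/LPS array 1 (0.0623) or 2 (0.0729), or IL-4/IL-13 array 2 (0.0905).

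**Figure D3:**
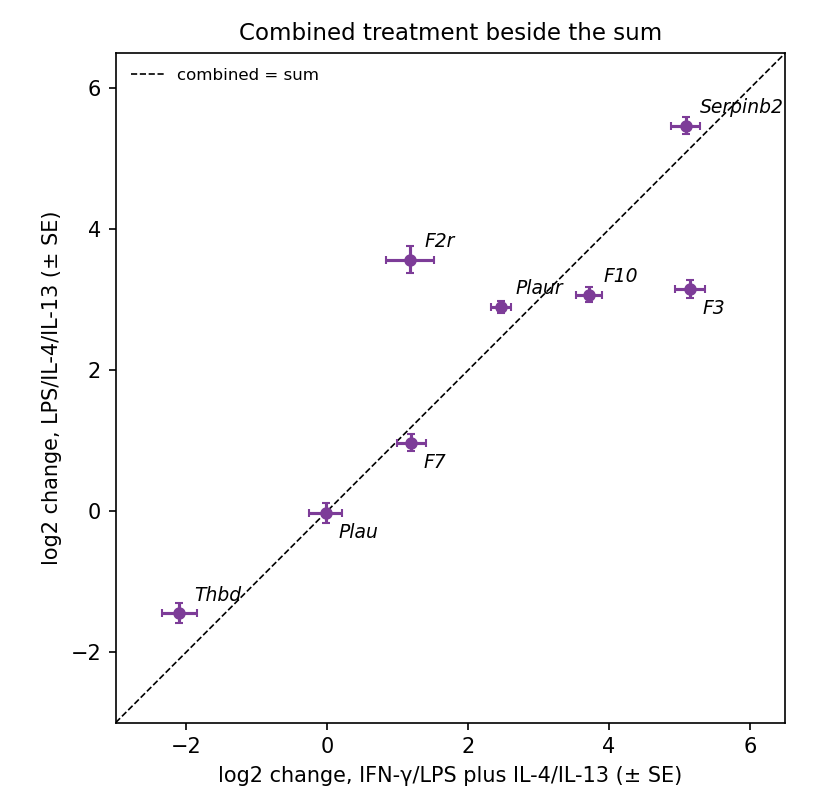
Log2 change under LPS/IL-4/IL-13 (vertical axis) against the sum of the changes under IFN-gamma/LPS and IL-4/IL-13 (horizontal axis), each ± SE, for the 8 genes. The dashed line marks equality. F2r departs from the line by 2.40 and F3 by -1.995.

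Some genes outside the system traced nearly the same values. Likeness was the root mean square difference of the 8 array values after each gene was centred on its own mean, among 4369 genes with a range of group means of at least 1 log2 unit, and it is a description with no test. The nearest to F2r were the chemokine gene Cxcl3 (0.25 log2 units), Fcrlb (0.35) and the transcriptional inhibitor gene Id1 (0.37), and the nearest gene to each of the other 5 members compared lay closer than that. F3 was nearest to Armcx6 (0.14), the chemokine gene Ccl22 (0.20) and Batf2 (0.25), and Serpinb2 to Slfn4 (0.11), the feedback inhibitor gene Socs3 (0.17) and the antiviral gene Mx1 (0.23). Plaur was nearest to Car13 (0.09), Trim13 (0.16) and Ccnyl1 (0.17), F10 to Mid1 (0.17), Sdc4 (0.19) and Stat2 (0.24), and Thbd to Lix1l (0.06), Gpx3 (0.09) and Dnajc18 (0.09). F7 and Plau had ranges under 1 and were left out. Among the members themselves, Plaur and F3 were the closest pair with ranges above 1, at 0.71.

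Most other clotting factor genes were not called. The counts of the lists stand beside 51.9% of all named genes called under IFN-gamma/LPS, 20.2% under IL-4/IL-13 and 45.6% in the combination. Of 13 measured coagulation factors and substrates, 2 rose and 1 fell under IFN-gamma/LPS, 1 fell under IL-4/IL-13, and 2 rose and 1 fell in the combination. The medians of that list were 0.25, 0.08 and 0.15. F13a1, the gene of the fibrin cross-linking factor XIII subunit A, fell in all 3 treatments, by 1.56, 1.07 and 1.17 in that order. F5, the gene of the factor Xa cofactor factor V, rose under IFN-gamma/LPS (0.65). It read 0.07 and 0.20 above untreated under IL-4/IL-13 and the combination without passing. Its signal was low, at 4.96 and 5.16 untreated and 5.63 and 5.79 under IFN-gamma/LPS. The hepatocyte markers averaged 5.15 and 5.20, and 5.30 and 5.35, on those arrays, so expression of F5 is not shown. F5 was lower in the combination than under IFN-gamma/LPS (-0.46), a call lost without IFN-gamma/LPS array 2 (adjusted p = 0.131) and without LPS/IL-4/IL-13 array 1 (adjusted p = 0.115).

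Genes listed with the anticoagulants were called in both directions, with Procr changing most among the other pathway genes tested. Of 12 measured, 7 rose and 2 fell under IFN-gamma/LPS, 1 fell under IL-4/IL-13, and 4 rose and 2 fell in the combination, beside 51.9%, 20.2% and 45.6% of all genes, with list medians of 0.29, 0.14 and 0.26. The median of all genes under IFN-gamma/LPS was 0.11. Among those rises, Proz and Tfpi2 had low signals. Proz read 5.54 and 5.53 untreated and 5.77 and 5.87 under IFN-gamma/LPS. Tfpi2 read 5.27 and 5.18 untreated and 5.53 and 5.53 under IFN-gamma/LPS. Proc, Serpind1 and Serpina10 lay between 5.23 and 5.87 on those arrays. Hepatocyte markers averaged 5.15 and 5.20 untreated and 5.30 and 5.35 under IFN-gamma/LPS, and expression of these genes is not shown. Procr, the gene of the receptor that presents protein C to the thrombin-thrombomodulin complex, read 6.96 and 6.88 untreated, 12.12 and 12.11 under IFN-gamma/LPS, 6.77 and 6.51 under IL-4/IL-13, and 11.61 and 11.52 under LPS/IL-4/IL-13. It rose 36.6-fold and 25.0-fold in the groups with LPS (log2 changes 5.20 ± 0.10 and 4.65 ± 0.10), the same arrays in which Thbd fell. Under IL-4/IL-13 it read 0.28 below untreated (adjusted p = 0.0646), and passed without IL-4/IL-13 array 1 (adjusted p = 0.025) and without LPS/IL-4/IL-13 array 1 (adjusted p = 0.0441) or array 2 (adjusted p = 0.044). Pros1, the gene of the protein C cofactor protein S, rose by 1.72 and 1.19 with LPS and read 0.23 above untreated under IL-4/IL-13. Gas6, listed here as a protein S relative that binds TAM receptors, fell by 1.90, 0.79 and 2.07. No other gene of the list was called under IL-4/IL-13, and only Gas6 and Tfpi fell with LPS. Tfpi, the inhibitor of the tissue factor and factor VIIa complex, fell by 0.63 under IFN-gamma/LPS and 0.50 in the combination and read 0.04 above untreated under IL-4/IL-13. Tfpi2 read 0.31, 0.15 and 0.29 above untreated. Its call under IFN-gamma/LPS was lost without any 1 of the 4 arrays compared, and its change ranged from 0.26 to 0.35 there. That call was also lost after quantile normalization (adjusted p = 0.162) and with adjustment over all probe sets (adjusted p = 0.0569). The call in the combination was lost without any 1 of the 8 arrays.

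Endothelial cells are a known site of thrombomodulin, the protein C receptor and Tfpi, so their markers stand beside these values. Of 9 endothelial markers, 4 rose and 1 fell under IFN-gamma/LPS, 1 rose under IL-4/IL-13, and 2 rose in the combination. The mean of the 9 stood at 5.73 and 5.81 on untreated, 6.34 and 6.32 on IFN-gamma/LPS, 6.17 and 6.16 on IL-4/IL-13, and 6.12 and 6.17 on LPS/IL-4/IL-13 arrays. Kdr, a VEGF receptor gene, read 5.79 and 5.67 untreated and 9.45 and 9.50 under IFN-gamma/LPS, and Pecam1, which leukocytes also express, read 6.86 and 6.85 untreated and 9.27 and 8.98 under IL-4/IL-13. The part of these markers in the values of Procr, Thbd and Tfpi was not tested.

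**Figure D4:**
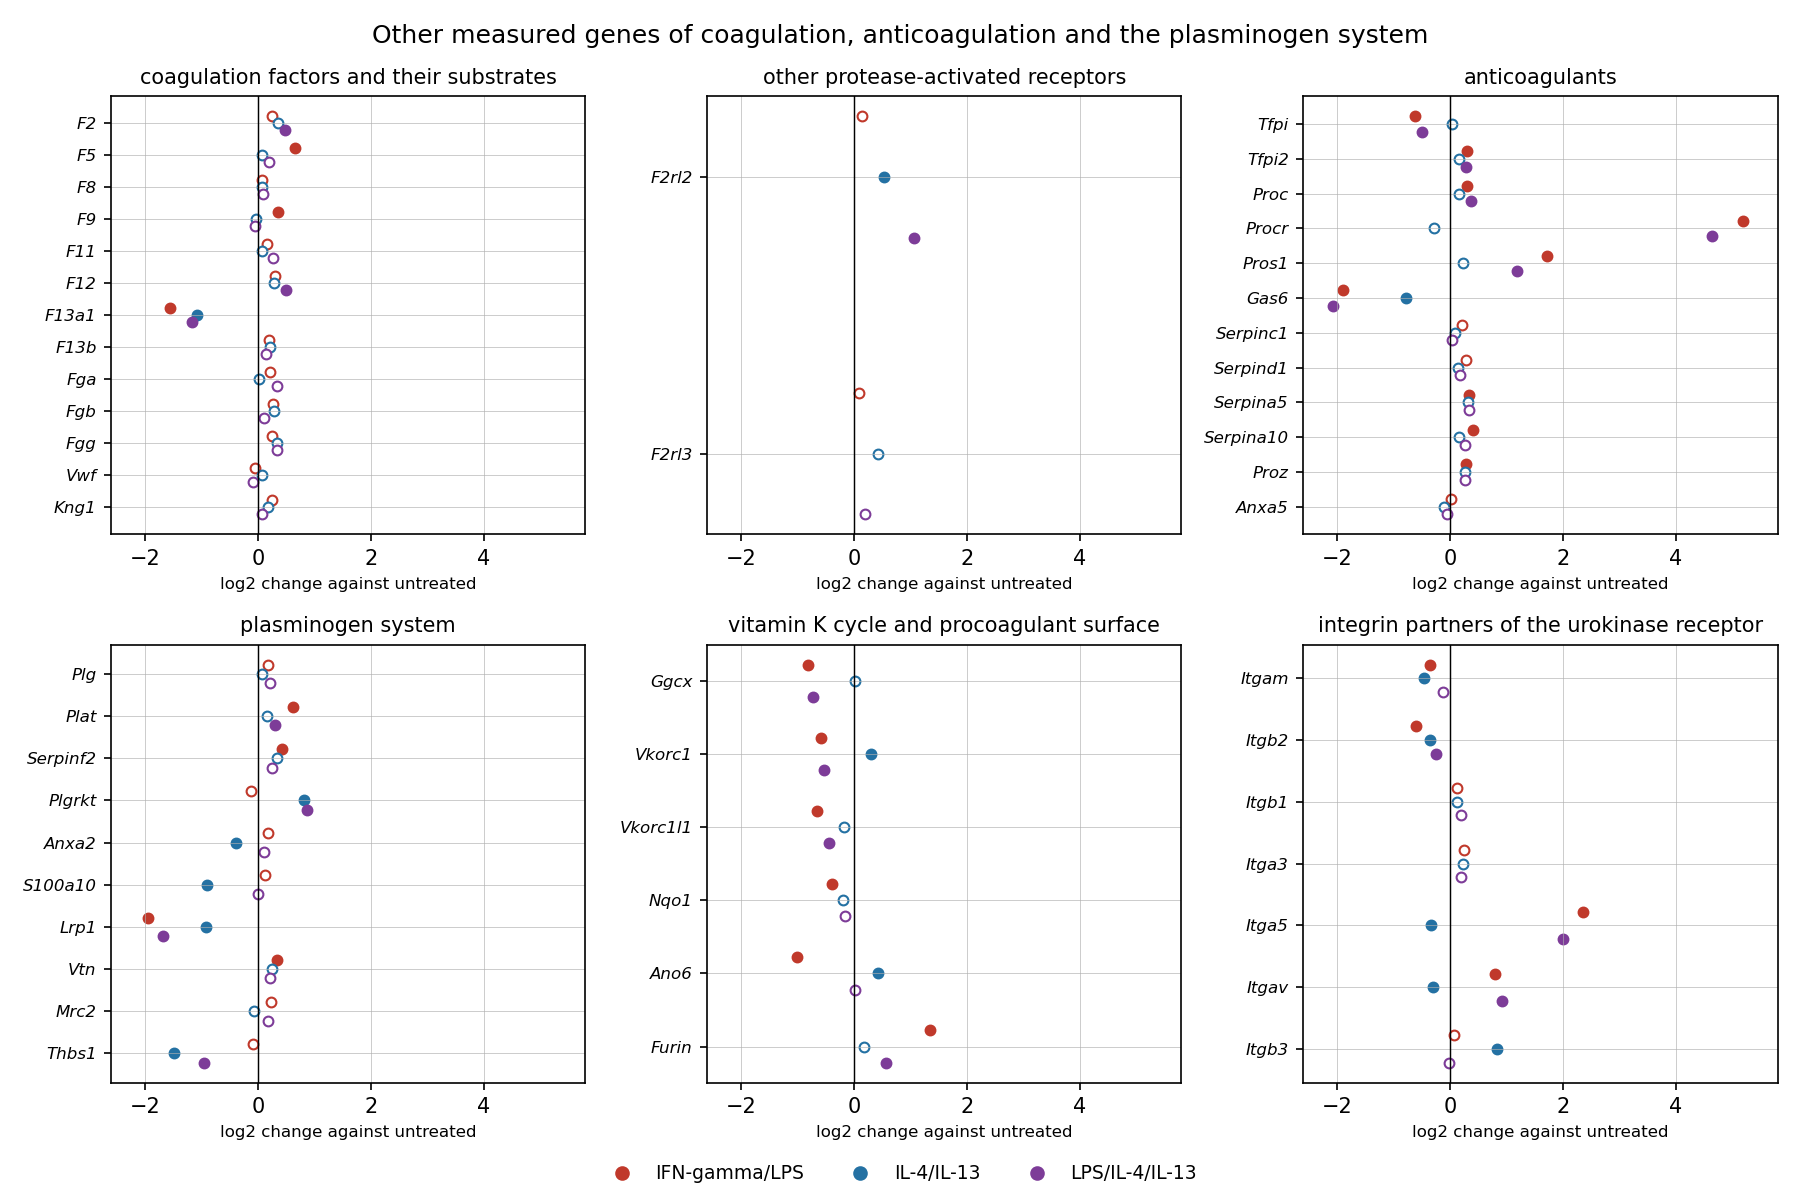
Log2 change against untreated cells (horizontal axis) of the other measured genes, in 6 lists, under the 3 treatments. Filled points passed at an adjusted p under 0.05. Procr stands apart at 5.20 and 4.65 under the treatments with LPS, and most clotting factor genes lie near 0.

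For genes around plasminogen, the share called with LPS was near that over all genes. Of 10 measured, 3 rose and 1 fell under IFN-gamma/LPS, 1 rose and 4 fell under IL-4/IL-13, and 2 rose and 2 fell in the combination, where 51.9%, 20.2% and 45.6% of all genes were called. Lrp1, the clearance receptor for protease and inhibitor complexes, fell by 1.95, 0.92 and 1.69. Plgrkt, the gene of a plasminogen receptor, rose by 0.81 under IL-4/IL-13 and 0.88 in the combination and read 0.12 below untreated under IFN-gamma/LPS. The IL-4/IL-13 call of Plgrkt was lost without untreated array 2 (adjusted p = 0.0814) and without IL-4/IL-13 array 2 (adjusted p = 0.0898). Thbs1, which encodes the matrix protein thrombospondin, fell by 1.48 under IL-4/IL-13 and 0.95 in the combination and read 0.09 below untreated under IFN-gamma/LPS. Anxa2 and S100a10, whose proteins form a complex that docks plasminogen, fell by 0.39 and 0.91 under IL-4/IL-13. For Anxa2 that call was lost without untreated array 1 (adjusted p = 0.058) and without IL-4/IL-13 array 2 (adjusted p = 0.0689), and it read 0.18 and 0.11 above untreated in the other treatments. Anxa2 was called under IFN-gamma/LPS without LPS/IL-4/IL-13 array 1 (adjusted p = 0.0326) or array 2 (adjusted p = 0.0323). Plat, the gene of tissue plasminogen activator, rose by 0.62 under IFN-gamma/LPS and read 0.17 above untreated under IL-4/IL-13. In the combination it passed at 0.30 (adjusted p = 0.0463), a call lost without any 1 of the 8 arrays, where it ranged from 0.23 to 0.36. The signal of Plat was low, at 5.15 and 5.28 untreated and 5.77 and 5.90 under IFN-gamma/LPS, so its expression is not shown.

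Integrins that pair with the urokinase receptor and genes that prepare clotting factors completed the lists. Of 7 integrin genes, 2 rose and 2 fell under IFN-gamma/LPS (51.9% of all genes called), 1 rose and 4 fell under IL-4/IL-13 (20.2%), and 2 rose and 1 fell in the combination (45.6%), shares with LPS near those over all genes. Itga5, the fibronectin receptor subunit gene, rose by 2.36 and 2.00 in the groups with LPS, and Itgav by 0.80 and 0.93, while Itgb3 rose by 0.83 under IL-4/IL-13. Of 6 genes of the vitamin K cycle and the procoagulant surface, 1 rose and 5 fell under IFN-gamma/LPS, 2 rose under IL-4/IL-13, and 1 rose and 3 fell in the combination, beside the same shares of all genes. Furin, the gene of a proprotein-cutting protease, rose by 1.34 and 0.56 with LPS. Ggcx, the gene of the carboxylase that readies factors VII and X, fell by 0.82 and 0.73. Ano6, which encodes the scramblase that exposes phosphatidylserine, fell by 1.01 under IFN-gamma/LPS and was 1.02 higher in the combination than there.

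Neighbouring genes on the chromosome were examined for the 8 genes, up to 5 protein-coding genes on either side. Under IFN-gamma/LPS, where 51.9% of all named genes were called and 17% at 2-fold or more, 4 of 9 measured neighbours of F2r, 5 of 10 of F3, 8 of 10 of F7, 8 of 10 of F10, 3 of 10 of Thbd, 6 of 10 of Plau, 5 of 10 of Plaur and 2 of 9 of Serpinb2 were called. Calls of at least 2-fold numbered 2, 4, 2, 1, 1, 3, 0 and 1 in that order. The neighbours of F7 and of F10 are mostly the same genes, and each of these members is counted as a neighbour of the other. F10 is 1 of the 2 neighbours of F7 called at 2-fold. Around F3, Cnn3, the calponin 3 gene, lies 265331 bases away and had log2 changes of 4.41 under IFN-gamma/LPS, -0.55 under IL-4/IL-13 and 3.78 in the combination. Abcd3, which flanks F3 directly, read -1.12 against untreated under IFN-gamma/LPS.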

How the data were processed

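RNA of 8 samples was hybridised to whole-transcript mouse gene arrays after labelling with biotin by a 3′ IVT kit, per the labels. The deposited table holds the authors' log2 signal of 35556 probe sets, a scale read from its values (1.46 to 13.71, array medians 6.12 to 6.20); the labels call it a MAS5 signal. Background correction and normalization were not given in the sources used here, and the values were used as deposited. Probe sets with 1 gene symbol (21789) were kept, 1621 with several and 12146 with none were left out, and the probe set with the highest mean stood for each of 999 genes with more than 1, leaving 19938 genes. limma 3.58.1 in R 4.3.3 fitted the 4 groups together (eBayes with trend), with Benjamini-Hochberg adjustment over all named genes and a threshold of 0.05. Each adjusted p printed comes from this fit, except where a left-out array or another setting is named beside it. The code was tested on simulated data. The departure from the sum is the change in the combination minus the changes in the other 2 treatments. Gene coordinates and promoters are RefSeq's (GRCm38.p6). The members, the gene lists and the rule for named genes (all members, preset pathway genes such as Procr and Lrp1, the largest called changes per list, and the 3 genes most like each member) were chosen with earlier results of these data known. The chromosomal neighbours and the single markers of other cells named were chosen after their values were seen. Deviations of same-numbered arrays had correlations over all named genes that differed in sign. They ran from -0.358 (IFN-gamma/LPS with LPS/IL-4/IL-13) to 0.217 (untreated with LPS/IL-4/IL-13). Whether arrays of different groups share a batch was not tested. Alternatives were quantile normalization, median centring, no trend, dim genes left out, only the arrays compared, a replicate block, other thresholds, all probe sets and leaving out each array. The number of arrays limits the precision.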

Additional observations from a re-analysis of the deposited data

How the results depend on the processing

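Of the members' log2 differences under the alternatives other than leaving out 1 array, 574 kept direction and call, 26 lost the call, 5 gained it and 3 changed sign. These alternatives include fits of only the 4 arrays compared, and stricter thresholds applied to the reported fit. Leaving out 1 array gave 412, 21, 4 and 11, and the calls that changed stand beside the genes in the report. The sign changes were in differences that were not called. After quantile normalization Plau read 0.0484 under IFN-gamma/LPS and 0.0691 under LPS/IL-4/IL-13 against untreated, F2rl3 -0.0338 and Plgrkt 0.13 under IFN-gamma/LPS, and F5 -0.00688 under IL-4/IL-13, and after median centring the departure of Plau from the sum was 0.055. Without 1 array, Plau ranged from -0.39 to 0.15 under IFN-gamma/LPS, from -0.17 to 0.37 under IL-4/IL-13, from -0.29 to 0.24 under LPS/IL-4/IL-13 and from -0.27 to 0.26 in its departure. Against untreated cells, F2rl2 ranged from -0.055 to 0.345 and F2rl3 from -0.09 to 0.26 under IFN-gamma/LPS, and Serpinb2 from -0.16 to 0.13, F5 from -0.035 to 0.165 and Tfpi from -0.045 to 0.125 under IL-4/IL-13. Thbd ranged from -0.23 to 0.10 between the groups with LPS, and F2r from -0.005 to 0.355 between IFN-gamma/LPS and IL-4/IL-13. When a change of at least 2-fold was also required, IL-4/IL-13 against untreated had 1 member higher and 0 lower, the combination had 1 higher than IFN-gamma/LPS and 0 lower than IL-4/IL-13, IFN-gamma/LPS had 0 lower than IL-4/IL-13, and 1 member lay above and 1 below the sum. At an adjusted p under 0.01, 1 member lay above the sum. Quantile normalization put 2 members lower in the combination than under IFN-gamma/LPS, and without dim genes 2 were lower under IFN-gamma/LPS than under IL-4/IL-13. Without 1 array, 1 to 2 members were lower under IFN-gamma/LPS against untreated, 1 to 2 under IL-4/IL-13 against untreated and 1 to 2 under IFN-gamma/LPS than under IL-4/IL-13, while 2 to 4 were higher in the combination than under IFN-gamma/LPS and 1 to 3 above the sum. Over all named genes, requiring 2-fold left 3395, 487 and 2768 called of 10357, 4020 and 9099 for IFN-gamma/LPS, for IL-4/IL-13 and for the combination against untreated, 659 of 3926 and 2224 of 7319 for the combination against IFN-gamma/LPS and IL-4/IL-13, 3022 of 8302 for the difference of IFN-gamma/LPS from IL-4/IL-13, and 1067 of 4004 for the departure. For IL-4/IL-13 against untreated, 2325 genes were called at 0.01, 2641 with adjustment over all probe sets, and as few as 2063 without 1 array. The combination against IFN-gamma/LPS had 2603 with only the arrays compared, and the departure had 2393 at 0.01 and 2478 without untreated array 1. The replicate block, tried although the correlations of same-numbered arrays differed in sign, ended the call of Thbd's departure (0.65, adjusted p = 0.0518) and of Tfpi2 in the combination (adjusted p = 0.0512). Alternatives on scanner background and slide were not run, since the values used hold neither. The cause of these shifts was not tested.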
